A study of Mus musculus with 10 samples.

Results

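The knockdown of mutant Trp53 was read in 1 pair of primary tumour cell lines, the shTrp53 primary line against the shCtrl primary line. Of the 12806 named genes in the count table, 8617 reached at least 10 CPM (counts scaled to library size) in 1 of the 2 libraries and were taken as the genes of the pair. The minimum fell between Foxk1, at 10.0 CPM in its higher library, and Slc23a2, at 9.97 CPM.

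Both lines are mouse esophageal squamous cell carcinoma cells, from the cancer of the stratified lining of the esophagus, on a mixed strain background. Both carry the Trp53 mutant allele R172H over a null allele, written Trp53R172H/- in the labels, so neither line has wild-type Trp53. They differ in the short hairpin RNA they received, a control hairpin (shCtrl) or a hairpin against Trp53 (shTrp53). The series also holds 8 lines grown from lung metastases at week 8 after sorting for the fluorescent protein YFP, 5 with shCtrl (lines 376, 377, 378, 382 and 383) and 3 with shTrp53 (lines 384, 386 and 387), all of the same Trp53 genotype. They served here to set the pair beside lines it does not use. Each primary group is 1 line and 1 library. The labels do not say how the primary lines were made, which promoter drives the hairpins, whether a second hairpin was used, or whether any lines share an animal. A difference between the primary lines therefore cannot be told apart from any other difference between these 2 cultures, and no p-value is given for the pair.

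Wild-type p53 is a transcription factor that halts the cell cycle or starts cell death after damage. Missense mutants such as R172H, which lies in the DNA-binding domain, lose much of that activity, often accumulate in tumour cells, and have been tied to invasion and metastasis. Squamous carcinoma cells come from a stratified epithelium whose basal layer expresses the keratins Krt5 and Krt14 and the p53 relative Trp63, and sits on a basement membrane of laminins and type IV collagen.

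The libraries held 15317280 counts with shCtrl and 11057049 with shTrp53, against 11644562 to 18431216 in the metastatic lines. Ratios are given as log2 of shTrp53 over shCtrl CPM, without a prior count, with an exact 95% binomial counting interval. Such an interval covers counting error only, not the difference between 2 cultures. The squamous label held in both lines: Krt14 stood at 9512 CPM in the shCtrl line and 6937 CPM in the shTrp53 line, Krt5 at 1071 and 1093 CPM, and all 15 basal squamous markers in the table reached the minimum. Of the markers of other cells, 3 of 10 fibroblast, 3 of 9 endothelial and 2 of 11 lung epithelial genes were in the table and none reached the minimum, with summed levels of 2.01, 5.76 and 5.57 CPM with shCtrl and 1.78, 6.22 and 8.24 CPM with shTrp53. The only immune marker in the table, Cd68, which epithelial cells also express, stood at 75.0 and 85.7 CPM.

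Among the 8617 genes, 234 (2.72%) were at least 2-fold higher with shTrp53 and 44 (0.511%) at least 2-fold lower, 278 (3.23%) in all. The interval lay above 0 for 2175 genes (25.2%) and below 0 for 3291 (38.2%). It lay wholly past 2-fold for 125 of the higher and 20 of the lower genes, and 30 and 5 differed by at least 4-fold. The higher genes were mostly of low abundance, with a median level of 7.15 CPM with shCtrl and 18.9 CPM with shTrp53, while the lower genes had medians of 29.8 CPM and 13.0 CPM. For 66 of the 234 higher genes the shCtrl level was under 5 CPM, so that they could reach the minimum only by being past 2-fold, and the same held for 4 of the 44 lower genes. With the minimum set on the mean of both libraries, an alternative added after the data were seen, 159 genes were higher and 38 lower.

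**Figure D1:**
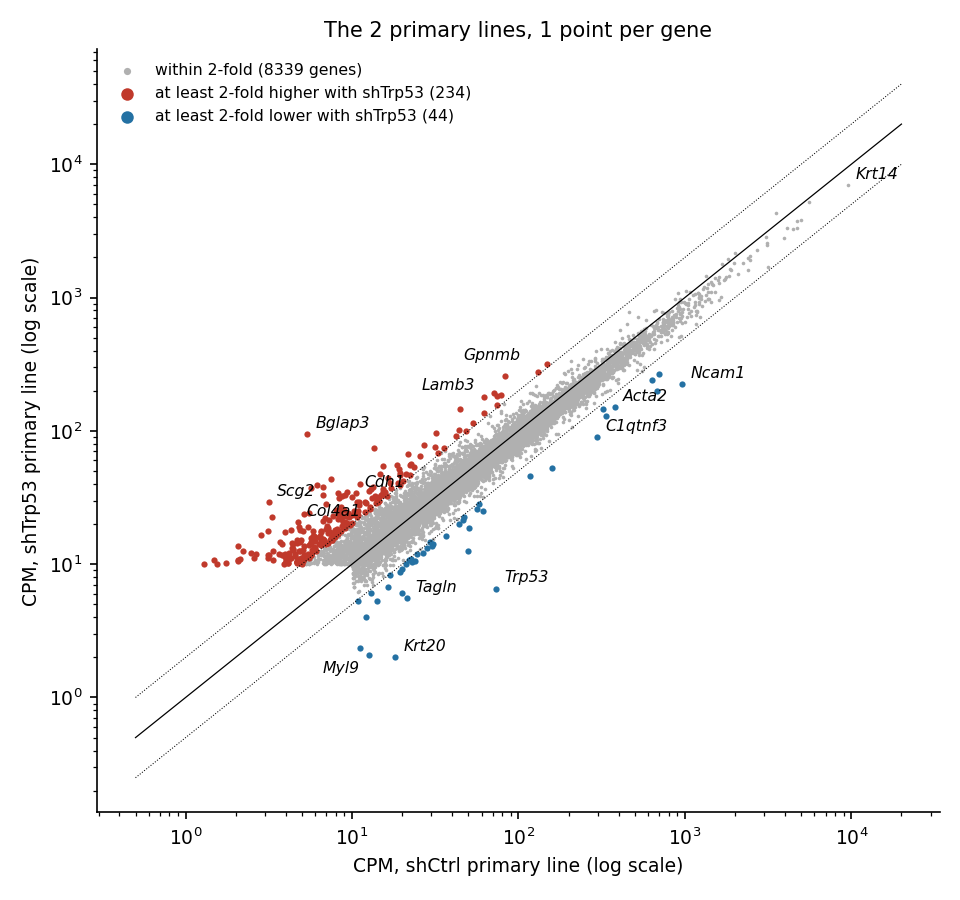
CPM of each of the 8617 genes in the shCtrl primary line (x axis, log scale) and the shTrp53 primary line (y axis, log scale). The solid line marks equal levels and the dotted lines 2-fold; the 234 higher genes (red) gather at low levels, and the 44 lower genes (blue) include abundant genes such as Ncam1 and Acta2.

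The ratio moved with the level and the base composition of genes. Its median was 0.18 in the lowest of 5 equal bins of genes ordered by mean level and -0.20 in the highest, against -0.06 over all genes. The share of genes at least 2-fold higher was 0.817% in the lowest of 5 bins of transcript GC content and 6.72% in the highest, and the median GC content was 55.1% for the higher genes, 50.3% for the lower genes and 49.4% for all. Across 8561 genes the Spearman correlation of ratio and GC content was 0.24 in the pair, while it lay between -0.11 and 0.02 for every pair of metastatic lines within a group. After subtracting the median of 20 GC bins, added after the data were seen, 234 genes were higher and 35 lower, of which 218 and 32 were among those counted above.

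Lines with the same label also differed. By the same rule, 60 to 969 genes were past 2-fold between any 2 of the 5 shCtrl metastatic lines (median 302.5 over 10 pairs) and 122 to 416 between any 2 of the 3 shTrp53 metastatic lines, so the 278 genes of the primary pair lie within the range seen between lines that share a hairpin. For 149 of the 234 higher genes (63.7%) and 21 of the 44 lower genes (47.7%) the primary ratio was wider than the range of either metastatic group, against 9.08% of all genes, which the choice of genes past 2-fold favours.

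Trp53, the target of the hairpin, checks the labels. It was read 1139 times with shCtrl and 81 times with shTrp53, 73.7 CPM against 6.54 CPM. The log2 ratio of -3.49 (interval -3.84 to -3.17), an 11.3-fold difference, was the lowest of all genes of the pair. The metastatic lines stood at 94.5 to 131 CPM with shCtrl and 5.16 to 7.36 CPM with shTrp53, so the primary shCtrl level lay below all 5 control metastatic lines and the primary shTrp53 level lay within the range of the 3 knockdown metastatic lines. Wrap53, which overlaps the start of Trp53 on the other strand, stood at 27.8 CPM in the shCtrl line and 22.1 CPM in the shTrp53 line (log2 ratio -0.34, interval -0.56 to -0.11). Whether counting used strand is not stated in the labels or notes, so reads of the overlap cannot be assigned to either gene.

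No member of the p53 target list was past 2-fold, but only 3.23% of all genes were. A 0 in a list of this size thus does not set it apart. Of 25 targets of wild-type p53 at the minimum, 7 had an interval above 0 and 9 below, beside 25.2% and 38.2% of all genes, and the median was -0.05, beside -0.06 over all genes. Cdkn1a, the p21 inhibitor of cyclin-dependent kinases, stood at 39.4 and 31.3 CPM (log2 ratio -0.33), Mdm2, the ubiquitin ligase of p53, at 95.9 and 74.2 CPM (-0.37), and Bax, a pro-apoptotic effector, had a ratio of -0.04. Of the p53 relatives, Trp63 was at 78.6 and 141 CPM (0.84) and Trp73 at 6.28 and 10.4 CPM (0.73). None of 8 inhibitors of apoptosis and none of 12 pro-apoptotic genes was past 2-fold, beside the same 3.23% of all genes.

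Birc5 encodes survivin, a subunit of the chromosomal passenger complex, which guides chromosome segregation, and an inhibitor of cell death, and the title of the series names it. It was read at 360 CPM in the shCtrl line and 272 CPM in the shTrp53 line (ratio -0.41, interval -0.47 to -0.34). Of the other subunits of the complex, Cdca8, which encodes borealin, was at 337 and 243 CPM (-0.47), whereas Incenp, the scaffold, was at 101 and 117 CPM (0.22) and Aurkb, the kinase, at 167 and 174 CPM (0.06). These 3 genes were chosen after their values were seen. None of the 31 mitosis genes at the minimum was past 2-fold, beside 3.23% of all genes. Their median was -0.22, with 26 intervals below 0 and 3 above, where all genes had 38.2% below and 25.2% above, beside a median of -0.20 in the most abundant of the 5 bins of all genes, and under library-size scaling alone it was -0.07 with 14 intervals below 0. Nuf2, a subunit of the kinetochore, was the lowest, at 91.9 and 54.8 CPM (-0.75), and Foxm1, a transcription factor of mitotic genes, the highest, at 14.6 and 22.3 CPM (0.61). DNA replication genes had a median of -0.21 with 0 of 29 past 2-fold.

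Of genes of the contractile cytoskeleton, Acta2, Tagln and Myl9 were past 2-fold lower with shTrp53, while others varied. Acta2, smooth muscle actin, stood at 378 CPM in the shCtrl line and 151 CPM in the shTrp53 line (log2 ratio -1.32, interval -1.40 to -1.25). Tagln, the actin-binding protein transgelin, was at 21.5 and 5.57 CPM (-1.95, interval -2.34 to -1.57), and Myl9, a myosin regulatory light chain, at 12.6 and 2.10 CPM (-2.58, interval -3.23 to -1.99). Of genes looked up after these values were seen, Nexn, an actin filament protein, was at 14.1 and 5.33 CPM (-1.40), Tgfb1i1, the focal adhesion protein Hic-5, at 26.8 and 12.1 CPM (-1.15) and Cnn2, a calponin, at 332 and 195 CPM (-0.77). Other actin-linked genes were not lower to that extent: the tropomyosins Tpm1 and Tpm2 had ratios of -0.25 and -0.50, Actn1, an actinin, -0.12, and Vcl, vinculin, 0.59. In bulk libraries, fewer cells that express these genes and less RNA per cell cannot be told apart.

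Serum response factor, a transcription factor of contractile genes, binds a so-called CArG box, and its own gene Srf stood at 7.25 CPM in the shCtrl line and 11.3 CPM in the shTrp53 line (0.64). The promoters of Acta2 and Myl9 are shown because these genes were low together in the shTrp53 line and each holds such boxes. Both are the 250 bases before the RefSeq start of the gene in GRCm38.p6, 5′ to 3′ on the gene's strand, with matches to CCNNNNNNGG that hold at least 5 A or T among the 6 middle bases in capitals. The Acta2 window lies at chr19:34255374-34255623 on the minus strand, with boxes that start 84 and 34 bases before the gene, and the Myl9 window at chr2:156775214-156775463 on the plus strand, with boxes 161 and 99 bases before it.
Acta2: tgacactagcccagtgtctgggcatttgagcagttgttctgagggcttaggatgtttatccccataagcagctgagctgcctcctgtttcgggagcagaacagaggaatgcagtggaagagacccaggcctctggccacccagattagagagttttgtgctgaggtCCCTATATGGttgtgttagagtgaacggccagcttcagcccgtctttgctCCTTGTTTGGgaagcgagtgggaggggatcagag
Myl9: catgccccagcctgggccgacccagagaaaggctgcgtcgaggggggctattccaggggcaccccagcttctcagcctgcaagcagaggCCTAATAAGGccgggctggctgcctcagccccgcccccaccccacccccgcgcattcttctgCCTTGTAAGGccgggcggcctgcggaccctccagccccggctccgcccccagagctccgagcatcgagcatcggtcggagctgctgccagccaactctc
The pattern reads the same on both strands, so each match was counted once. Such a box was present in 4 of 29 lower genes with a promoter in the table (13.8%; Acta2, Myl9, Fermt2 and Prune2), 21 of 185 higher genes (11.4%) and 642 of 6930 of all genes of the pair (9.26%). Tagln, Nexn and Tgfb1i1, also lower in the pair, were not among the 4, being either without a match or without a promoter window. A match says only that these letters occur there.

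The wider mesenchymal list held no other gene past 2-fold. Of 14 genes at the minimum Acta2 and Tagln were past 2-fold lower and none was higher, beside 0.511% and 2.72% of all genes. Of the 14 intervals, 7 lay below 0 and 5 above, beside 38.2% and 25.2% of all genes, and the median was -0.15. Vim, the intermediate filament vimentin, was at 379 and 309 CPM (-0.30), Cdh2, N-cadherin, at 13.6 and 9.53 CPM (-0.51) and Snai2, a repressor of epithelial genes, at 235 and 182 CPM (-0.37). Other transcription factors of the mesenchymal state had ratios near or above 0, Zeb1 -0.03, Zeb2, at 7.77 and 11.5 CPM, 0.56, Twist1, at 33.9 and 46.0 CPM, 0.44 and Twist2 0.78.

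Epithelial junction genes lay higher with shTrp53. Of 14 at the minimum 3 (21.4%) were at least 2-fold higher and none lower, beside 2.72% and 0.511% of all genes. Of the 14, 10 had an interval above 0 and none below, beside 25.2% and 38.2% of all genes, and the median was 0.42. Cdh1, E-cadherin, the adhesion receptor of epithelial cells, was at 10.6 CPM in the shCtrl line and 33.9 CPM in the shTrp53 line (1.68, interval 1.42 to 1.95). Cldn6, a tight junction claudin, was at 22.5 and 56.8 CPM (1.33) and Grhl2, a transcription factor that maintains epithelial genes, had a ratio of 1.02 from 7.90 CPM with shCtrl. Epcam was at 127 and 216 CPM (0.77). Krt8 and Krt18, keratins of simple epithelia, had ratios of 0.47 and 0.49. The desmosomal genes Dsp and Jup were level, at 0.07 and 0.05. Others, Pkp1, Pkp3 and, from the basal list, Dsg3, had ratios of 0.30, 0.37 and 0.32 with intervals above 0. Under DESeq2 size factors 2 of the 14 were past 2-fold.

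Of 15 basal squamous genes at the minimum, 10 had an interval above 0 and 3 below, beside 25.2% and 38.2% of all genes, and the median was 0.36. Lamb3, a chain of laminin-332, was the only one past 2-fold (6.67%, beside 2.72% of all genes higher). Krt15, a keratin of basal and progenitor cells, was at 67.1 and 129 CPM (0.94), Itgb4, the integrin subunit of hemidesmosomes, at 47.6 and 85.9 CPM (0.85) and Sox2, a transcription factor of the esophageal lining, at 39.2 and 55.2 CPM (0.49). The abundant keratins Krt14 and Krt17, at 9512 and 6937 CPM and at 1163 and 789 CPM, had ratios of -0.46 and -0.56. Of 16 squamous differentiation genes in the table only 5 reached the minimum. None of the 5 was past 2-fold, beside 3.23% of all genes, and Krt6a was at 305 and 270 CPM (-0.18). Below the minimum, Ppl, Sprr2a3, Sprr1b, Krt13, Lor and Ivl had intervals above 0, with ratios of 2.87 for Ppl down to 0.997 for Ivl. Grhl3 had an interval below 0, and the rest spanned 0.

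Of 20 laminins, collagens and other matrix genes at the minimum, 8 (40.0%) were at least 2-fold higher with shTrp53 and none lower. Of all genes 2.72% were higher and 0.511% lower. The median of the list was 0.48. The list left out the collagen genes Col4a3 and Col4a4, both past 2-fold lower, which are given below. Col4a1, Lamb2 and Lama5, at 4.73, 4.86 and 4.79 CPM with shCtrl, could reach the minimum only by being past 2-fold. With the minimum on the mean of both libraries, a setting chosen after the data were seen, 6 of 18 (33.3%) were higher. This list also had a GC content above that of all genes, with a median of 54.3%, and after the GC adjustment the same 8 genes were past 2-fold. The type IV collagen chains Col4a1 and Col4a2, which are neighbours that share a promoter region, stood at 4.73 and 5.89 CPM with shCtrl and at 20.8 and 16.4 CPM with shTrp53 (2.13, interval 1.75 to 2.53, and 1.48, interval 1.11 to 1.85). Col18a1, the source of endostatin, was at 21.6 and 66.6 CPM (1.62), and Tnc, tenascin-C, at 53.4 and 114 CPM (1.10). The laminin chains Lamb3, Lamb2, Lama5 and Lamc1 had ratios of 1.53, 1.58, 1.39 and 1.19, and Lamb1 lay just below the threshold at 0.99.

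Another pair of collagen IV neighbours, outside the list, went the other way. Col4a3, whose chain belongs to the collagen IV network of kidney, lung and ear, was at 696 CPM in the shCtrl line and 268 CPM in the shTrp53 line (-1.38, interval -1.43 to -1.32). Its neighbour Col4a4, read after that value was seen, was at 17.0 and 8.32 CPM (-1.03, interval -1.37 to -0.69). Of the list, Fn1, fibronectin, was at 19.6 and 14.4 CPM (-0.44), Col5a1 at 13.7 and 8.72 CPM (-0.65) and Sparc at 562 and 468 CPM (-0.27), none past 2-fold. No integrin of 9 was past 2-fold, and 7 had an interval above 0, beside 3.23% and 25.2% of all genes. After the GC adjustment 1, Itga1, was past 2-fold.

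**Figure D2:**
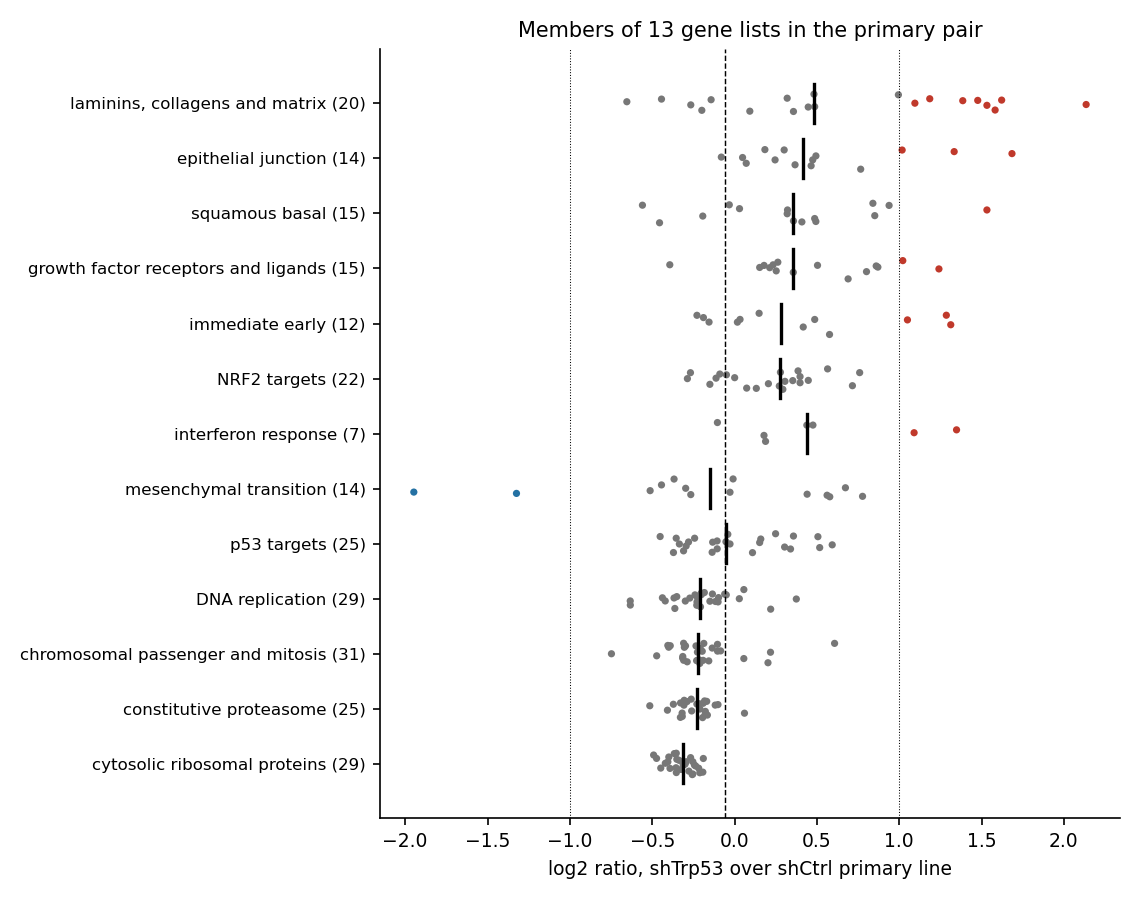
Log2 ratio of shTrp53 over shCtrl (x axis) for each member at the minimum of 13 gene lists (y axis, number of members in brackets). Black bars are list medians, the dashed line the median of all genes (-0.06) and the dotted lines 2-fold; matrix and epithelial junction genes lie to the right, ribosomal, proteasome and mitosis genes mostly to the left of the dashed line, with no member past 2-fold.

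The highest ratio was that of Bglap3, an osteocalcin family gene, at 5.37 CPM in the shCtrl line and 94.0 CPM in the shTrp53 line (4.13, interval 3.81 to 4.47). It has near-identical neighbours with which it can share reads, so the value may belong to the family. Among the others ranked highest by the interval bound nearest 0 were Scg2, a protein of secretory granules, at 3.17 and 29.2 CPM (3.20), and Ap1m2, the adaptor subunit for protein sorting in polarised epithelia, at 6.15 and 39.4 CPM (2.68). Gpx2, a glutathione peroxidase of epithelia, was at 13.5 and 75.0 CPM (2.48), and Wfdc2, a secreted epithelial protein, at 6.67 and 38.0 CPM (2.51). The transcriptional coactivator Eya2, the ceramide synthase Cers4, the kinase Map3k11, the protease Hgfac, which activates hepatocyte growth factor, and the protease inhibitor Serpina3g had ratios of 2.77, 2.69, 2.55, 2.51 and 2.30.

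At higher levels, 8 genes past 2-fold were named by abundance. Fst, follistatin, which binds activins, was at 148 and 318 CPM (1.10) and Sostdc1, a secreted antagonist of BMP and Wnt signals, at 131 and 278 CPM (1.08). Gpnmb, a membrane glycoprotein, was at 83.5 and 256 CPM (1.62), Igfbp7, a secreted binding protein, at 71.2 and 193 CPM (1.44) and Lgals3, galectin-3, at 74.8 and 157 CPM (1.07). Lamb3, Ly6c1 and Dusp1 completed this set.

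The lowest genes after Trp53 held abundant and rare transcripts alike. Krt20, a keratin of simple and transitional epithelia, was at 18.1 CPM in the shCtrl line and 2.02 CPM in the shTrp53 line (-3.17, interval -3.82 to -2.57). Ncam1, a neural cell adhesion molecule, was at 958 and 225 CPM (-2.09, interval -2.15 to -2.03), Mn1, a transcriptional regulator, at 681 and 197 CPM (-1.79) and C1qtnf3, a secreted protein, at 297 and 89.7 CPM (-1.73). Crabp1, which binds retinoic acid, was at 159 and 52.3 CPM (-1.61), Ywhah, a 14-3-3 adaptor, at 634 and 240 CPM (-1.40) and Rhox5, a homeobox gene of the X chromosome, at 49.5 and 12.6 CPM (-1.97). St3gal5, which makes the ganglioside GM3, was at 11.2 and 2.34 CPM (-2.26).

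**Figure D3:**
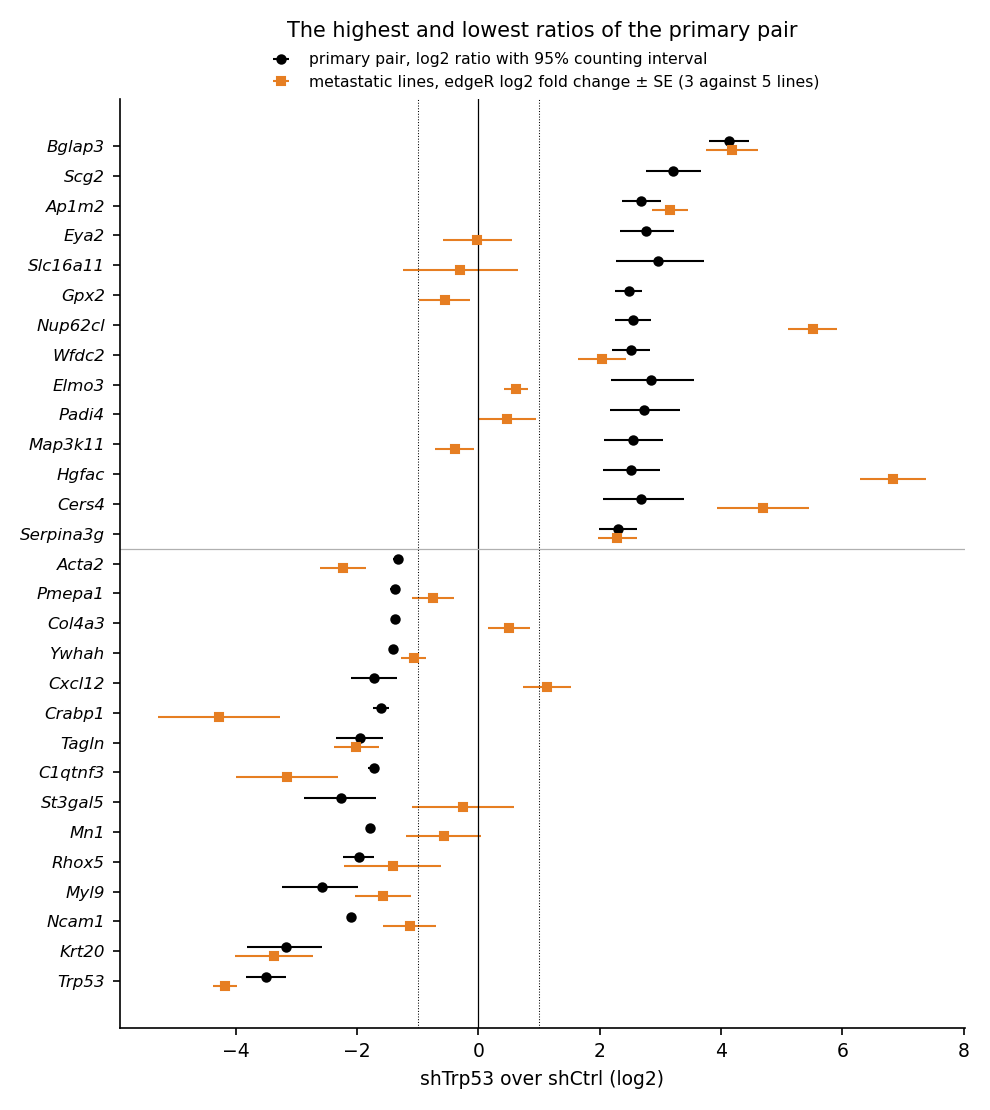
Log2 ratio of 14 of the 15 highest and of the 15 lowest genes of the primary pair, ranked by the interval bound nearest 0 (black points, bars are 95% counting intervals), with the edgeR log2 fold change of the metastatic lines (orange squares, bars are SE, 3 shTrp53 against 5 shCtrl lines). Bglap3, Ap1m2, Krt20, Tagln and Trp53 have values of like size in both, whereas Gpx2, Cxcl12 and Col4a3 lie on opposite sides of 0; Scg2 was not tested in the metastatic lines.

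Signalling lists gave few members past 2-fold, where 2.72% of all genes were higher and 0.511% lower. Of 15 growth factor receptors and ligands 13 had an interval above 0 and 1 below, beside 25.2% and 38.2% of all genes, with a median of 0.36. Fgfr1, a receptor for fibroblast growth factors, was at 7.38 and 17.4 CPM (1.24) and Igf2r, which clears insulin-like growth factor 2, at 7.12 and 14.5 CPM (1.02). Of 12 immediate early genes Fos, Dusp1 and Atf3 were higher, at ratios of 1.31, 1.29 and 1.05, whereas Egr1 and Fosl1 were at -0.19 and -0.23. Among 7 interferon response genes Irf9, a subunit of the interferon-activated ISGF3 complex, was at 6.41 and 16.3 CPM (1.35) and Bst2, the antiviral protein tetherin, at 4.86 and 10.3 CPM (1.09), while Stat2 was at -0.10. The cytokine list held 2 lower genes of 6, beside 0.511% of all genes. They were the chemokine Cxcl12, at 19.9 and 6.06 CPM (-1.71), and the macrophage growth factor Csf1, at 46.9 and 22.5 CPM (-1.06). In the TGF-beta list of 14, Id2, an inhibitor of helix-loop-helix factors, was at 43.7 and 101 CPM (1.21) and Pmepa1, a target and inhibitor of that pathway, at 336 and 130 CPM (-1.37). Of 15 Wnt and Notch genes the ligands Jag2 and Wnt7b were higher, at 1.31 and 1.18. Bst2 and Wnt7b, at 4.86 and 4.92 CPM with shCtrl, could reach the minimum only by being past 2-fold. With the minimum on the mean of both libraries, 1 of 6 interferon response genes and 1 of 14 Wnt and Notch genes were higher. Of immediate early genes 2 of 11 then were, without Atf3.

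Metabolic lists held few genes past 2-fold. Of the sterol synthesis list, Srebf2, the transcription factor of the pathway, had a ratio of 0.66, whereas the enzymes Hmgcs1, at 944 and 517 CPM, and Nsdhl, at 111 and 61.5 CPM, had -0.87 and -0.85. Acly, which makes cytosolic acetyl-CoA, was at 61.8 and 137 CPM (1.15) and Srebf1, a transcription factor of lipid synthesis, at 14.1 and 30.1 CPM (1.10). They were the 2 of 12 fatty acid genes past 2-fold (16.7%, beside 2.72% of all genes higher). After the GC adjustment Srebf1 was not past 2-fold. NRF2 targets, which answer oxidative stress, had a median of 0.28 with 15 of 22 intervals above 0, beside 25.2% of all genes, and none past 2-fold. Gclm and Gclc, the subunits of the enzyme that limits glutathione synthesis, were at 459 and 777 CPM (0.76) and at 118 and 193 CPM (0.72). All 29 cytosolic ribosomal protein genes had an interval below 0, beside 38.2% of all genes, within a narrow range of -0.49 to -0.19 and with a median of -0.31; under library-size scaling alone the median was -0.16. Proteasome subunits had a median of -0.23 over 25 genes and oxidative phosphorylation subunits -0.11 over 23, again beside -0.20 for the most abundant bin of genes. Of 20 genes of MYC and ribosome synthesis, Cad, which starts pyrimidine synthesis, was past 2-fold higher, at 8.16 and 18.3 CPM (1.17). No gene of DNA repair, heat shock, class I antigen presentation, YAP targets, proteases or the G1 cyclins was past 2-fold, beside 3.23% of all genes. Of the hypoxia and unfolded protein lists 1 gene each was, Egln3 (1.03) and Atf3. With the minimum on the mean of both libraries, Atf3 fell below it.

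The pair was then set beside the same contrast in the 8 metastatic lines, which share no library with it (edgeR quasi-likelihood test, adjusted p under 0.05, 3 against 5 lines). Its p-values rest on line-to-line spread only, since no label assigns the lines to separate animals. Of the 8608 genes of the pair that this test covered, 11.5% rose and 12.7% fell in the metastatic lines. Among the 43 lower genes tested 21 fell (48.8%) and none rose. Both counts include Trp53, the target of the hairpin in both settings. Among the 231 higher genes tested 54 rose (23.4%), 15 fell (6.49%) and 162 did not pass the test. Read from the other side, 21 of the 1092 genes that fell (1.92%) were past 2-fold lower in the pair, beside 0.511% of all genes. Of the 988 that rose, 54 (5.47%) were past 2-fold higher, beside 2.72% of all genes. In the opposite direction, 15 of those that fell (1.37%) were higher and 0 of those that rose were lower. Most metastatic calls were thus not mirrored at that size, though these calls had no fold minimum. The counts depended on single lines: 8 of the lower genes fell without shTrp53 line 386 and 12 without line 384, when 5.02% and 4.34% of all genes fell. Across the 8608 genes, which are not independent replicates, Pearson's r between ratio and fold change was 0.25 and Spearman's rho 0.20.

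**Figure D4:**
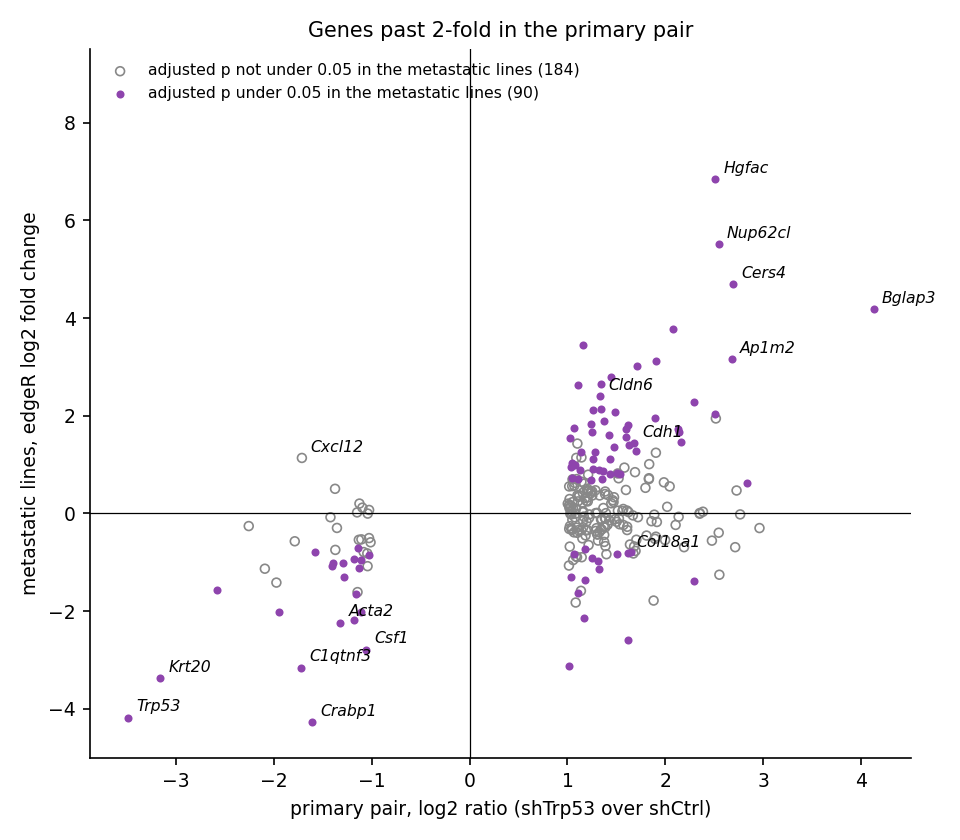
Primary log2 ratio (x axis) and metastatic edgeR log2 fold change (y axis) of the 274 genes past 2-fold in the pair that both measures cover. Filled points are the 90 genes with an adjusted p under 0.05 in the metastatic lines; most lower genes lie below 0 on the y axis, while higher genes lie on both sides.

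Several of the lower genes also fell in the metastatic lines. Acta2 stood at 234 to 531 CPM in the 5 shCtrl metastatic lines and at 132, 40.9 and 102 CPM in the shTrp53 lines, without overlap (log2 fold change of -2.23, SE 0.38, adjusted p = 0.00521). Tagln was at 5.11 to 13.8 CPM and at 3.44, 1.89 and 2.61 CPM (-2.01, SE 0.37, adjusted p = 0.00655), and Krt20 at 12.2 to 65.8 CPM and at 2.65, 5.86 and 3.94 CPM (-3.36, SE 0.64, adjusted p = 0.00775). Ywhah and Csf1 also fell without overlap, by 1.06 and 2.78 on the log2 scale, and these 5 calls held whichever line was left out. Scx, a tendon transcription factor read after its value was seen, was at 36.9 and 16.3 CPM in the pair (-1.18) and fell by 2.18 in the metastatic lines. Myl9 fell by 1.57 with overlapping groups, at 9.38 to 23.3 CPM and at 11.3, 3.38 and 3.22 CPM. Its call was lost without line 377, 378, 383, 386 or 387 (highest adjusted p = 0.117, edgeR). Crabp1, C1qtnf3 and Nexn fell by 4.27, 3.15 and 1.02, and missed the threshold without line 386 (adjusted p = 0.0657, 0.0944 and 0.0598), as C1qtnf3 did without 384 or 387 and Nexn without 384.

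Of the lower genes, Cxcl12 alone was higher in every shTrp53 metastatic line, at 5.02, 3.38 and 4.16 CPM against 0.700 to 2.83 CPM with shCtrl (a log2 change of 1.14, SE 0.40, adjusted p = 0.0631). These are levels below the primary shTrp53 level of 6.06 CPM, and the gene passed without line 383 (adjusted p = 0.0431) and by DESeq2 (0.0350). Col4a3 overlapped between the metastatic groups, at 116 to 420 CPM with shCtrl and 312 to 591 CPM with shTrp53. Ncam1 overlapped as well, at 332 to 1013 CPM and 114 to 433 CPM (-1.13, SE 0.43, adjusted p = 0.0868; 0.0207 by DESeq2), and Mn1 was at 80.5 to 281 and 16.5 to 214 CPM.

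The epithelial genes Cdh1 and Cldn6 rose in the metastatic lines too. Cdh1 was at 28.0 to 44.5 CPM with shCtrl and at 88.1, 106 and 94.1 CPM with shTrp53 (1.44, SE 0.16, adjusted p = 0.000661). The primary shTrp53 line, at 33.9 CPM, thus reached only the level of the metastatic control lines. Cldn6 was at 24.6 to 49.0 CPM and at 131, 267 and 177 CPM (2.40, SE 0.25, adjusted p = 0.000565). Bglap3 and Ap1m2 rose by 4.18 and 3.16 on the log2 scale, close to their primary ratios. Nup62cl and Hgfac rose by 5.52 and 6.84, with primary ratios of 2.55 and 2.51. The shCtrl metastatic lines held only 0.519 to 1.26 CPM of Nup62cl and 0.0700 to 0.174 CPM of Hgfac, so both sizes rest on few counts. Gpnmb, Igfbp7, Ly6c1, Lgals3, Irf9, Fgfr1, Serpina3g, Wfdc2 and Cers4 rose as well, and each gene named in this paragraph passed whichever line was left out.

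Of the matrix genes that were higher in the pair, the type IV collagen chains Col4a1 and Col4a2 also rose in the metastatic lines. Col4a1 was at 3.05 to 9.66 CPM in the shCtrl metastatic lines and at 12.5, 25.8 and 11.3 CPM in the shTrp53 lines (1.73, SE 0.39, adjusted p = 0.0137; 0.0682 without line 386). Col4a2 rose by 1.36 with overlapping groups and missed the threshold without line 377, 378, 382, 386 or 387 (highest adjusted p = 0.150, edgeR). Lamb3 was at 88.7 to 162 CPM with shCtrl and 75.6 to 131 CPM with shTrp53 (-0.22, SE 0.22, adjusted p = 0.501). Col18a1, 1.62 higher in the pair, fell by 0.81 in the metastatic lines, and its call was lost without line 377, 384 or 386 (highest adjusted p = 0.0953, edgeR). Of the 8 matrix genes past 2-fold in the pair, Lamb2, Lama5, Lamc1 and Tnc had metastatic log2 fold changes of 0.94, 0.45, -0.45 and 0.70, none past the threshold.

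**Figure D5:**
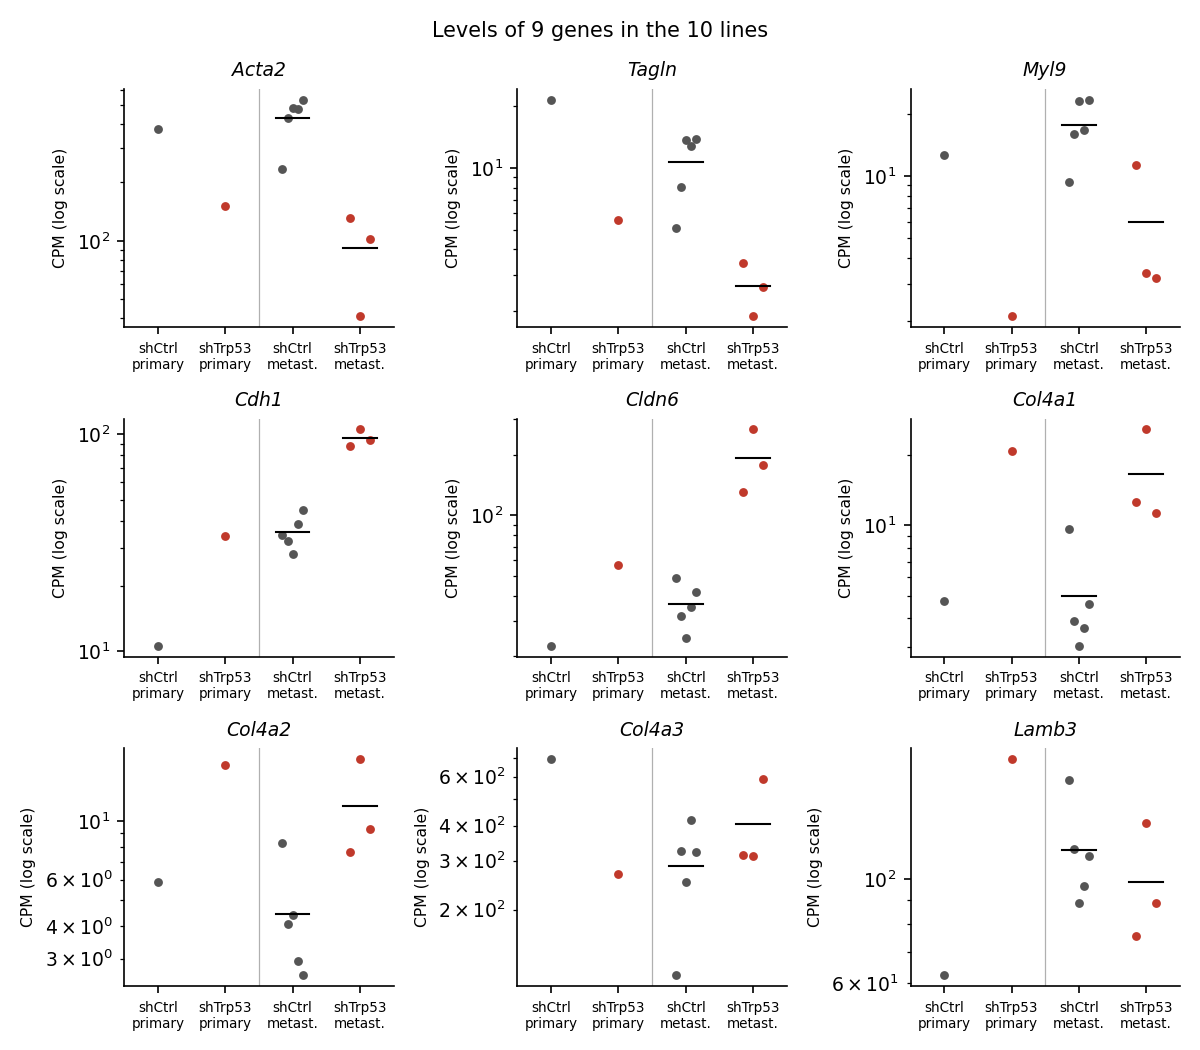
CPM (y axis, log scale, 1 panel per gene) of 9 genes in the 10 lines, 1 point per line, grey for shCtrl and red for shTrp53, with the group mean as a bar for the metastatic lines. The shTrp53 points of Acta2 and Tagln lie low and those of Cdh1, Cldn6 and Col4a1 high in both settings, while Col4a3 and Lamb3 differ in the primary pair and overlap in the metastatic lines.

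Some further higher genes of the pair lay on the other side of 0 in the metastatic lines. Of 234, 50 were higher and 18 lower in every shTrp53 metastatic line than in any shCtrl line. Of all 8617 genes of the pair 1307 (15.2%) and 1431 (16.6%) were. By share, more of the 234 than of all genes were higher in this way and fewer were lower. The 18 were Abr, Agap3, Ap2a1, Cad, Casq2, Col18a1, Dvl1, Furin, Hs6st1, Jag2, Myo1d, Pacs1, Plcb3, Ptk7, Pxn, Slc12a2, Sppl2b and Tmem176a. Furin, a protease that matures secreted precursors, was at 5.18 and 23.7 CPM in the pair (2.19) and had a log2 fold change of -0.69 in the metastatic lines (SE 0.25, adjusted p = 0.0728; 0.0427 by DESeq2). Cad fell by 2.14 in the metastatic lines, whichever line was left out, and Jag2 by 0.98, a call lost without line 376, 377, 378, 384 or 387 (highest adjusted p = 0.149, edgeR). The median of the 31 mitosis genes, in contrast, lay below 0 in both settings. In the pair it was -0.22, with none past 2-fold and 26 intervals below 0, beside 38.2% of all genes. In the metastatic lines the median log2 fold change was -0.97, and by the edgeR test 27 fell, beside 12.7% of all genes.

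Whether the knockdown acted differently at the primary site was tested as an interaction over all 10 libraries, in which each single primary library is assumed to vary like the metastatic lines. None of 12754 genes passed by edgeR, while 1168 had an unadjusted p under 0.05 and DESeq2 called 52. The genes contrasted above as different between the settings are therefore not shown to differ: the smallest adjusted p among the genes named by rule was 0.386 (Elmo3, Map3k11, Hgfac and Col18a1), and that of Cxcl12 was 0.457. With counts simulated at the same spread for every gene, the interaction found 53 of 93 genes that were changed by 4-fold but only 2 of 107 that were changed by 2-fold. Genes that vary more between lines than was simulated would be found less often.

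The ratios were spread over the chromosomes. Chromosome medians ran from -0.21 on chromosome 10 to 0.12 on chromosome 8, and the Y chromosome was at -1.02 over 2 genes. Of 489 genes on chromosome 8, 22 were higher and 0 lower, beside 2.72% and 0.511% of all genes. Chromosome 12 had 15 higher and 0 lower of 307 genes, and chromosome 14 had 12 and 1 of 281. Chromosome 11, with 22 and 3 of 721, was near the shares of all genes. Every chromosome but the Y held higher genes. The Y-linked genes Eif2s3y and Ddx3y were read 395 and 325 times with shCtrl and 162 and 124 times with shTrp53 (ratios -0.97 and -1.07), while Uty had 77 and 60 counts (-0.04). In the 8 metastatic lines together these genes had 0, 1 and 0 counts. The primary pair and the metastatic lines thus also differ in Y-linked transcripts, and what part this has in the comparison between them was not tested.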

How the data were processed

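RNA was read from 10 cell lines, 2 primary and 8 metastatic. Libraries were prepared with a ThruPLEX kit from SMART-Seq v4 cDNA, per the labels' protocols. The authors deposited whole-number counts per gene without normalization. Tools listed in the submitters' processing notes are Cufflinks 2.2.1, STAR 2.5 and DESeq2, and the build is mm9. What each did, the annotation, the strand setting and the rule that kept genes are not stated there. Of 12824 table rows, 18 bore a bare number as a name and were left out (0.332 to 0.491% of counts).

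CPM used TMM factors over all 10 libraries. Ratios of the primary pair carry exact binomial 95% intervals (scipy 1.17.1), and no test was run on the pair because each group has 1 library. Without molecular identifiers, intervals cover counting error only. The metastatic lines and the interaction were tested with edgeR 4.0.16 (filterByExpr, glmQLFit robust, glmQLFTest, Benjamini-Hochberg adjusted p under 0.05), with DESeq2 1.42.0 as an alternative. Standard errors were computed as the fold change (log2) divided by the square root of F. GC content came from GENCODE reference transcripts of GRCm38, matched by symbol (8561 of 8617 genes). Promoter sequences are from RefSeq, GRCm38.p6. Coordinates of GRCm38.p6 are not those of the authors' build.

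The members and the 37 gene lists were chosen with earlier results of these data known. Named genes were Trp53, Birc5, the 15 highest and 15 lowest ratios by the interval bound nearest 0, the 8 most abundant past 2-fold each way, and up to 4 per list past 2-fold or the 2 most abundant. No gene passed the interaction, which would have added up to 6. Other list members and genes, such as those said to be read after values were seen, fall outside this rule. A few genes are not reported here. Tested on simulated data, 95.03% of intervals held the true ratio (8128 genes). For the metastatic test, 101 of 101 simulated 4-fold changes and 78 of 99 simulated 2-fold changes were found among 12093 genes, all simulated at the same spread. Alternatives were other scalings, minimums, thresholds and filters, a prior count of 2, DESeq2 and leaving out each metastatic line.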

Additional observations from a re-analysis of the deposited data

Results flagged for a closer look

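For 43 genes named in the comparison with the metastatic lines, each group of 5 shCtrl metastatic lines was checked for a line far from the rest (Dixon's ratio of gap to range above 0.71, which chance exceeds in about 1 of 20 groups). Of these, 5 had such a line. Wfdc2 stood at 40.7 CPM in line 376 and at 13.9 to 19.7 CPM in the others, Col4a1 at 9.66 CPM in line 376 and at 3.05 to 4.59 CPM in the others, and Jag2 at 41.4 CPM in line 376 and at 19.7 to 23.9 CPM in the others. C1qtnf3 stood at 37.3 CPM in line 378 against 3.96 to 7.63 CPM, and Cers4 at 0.298 CPM in line 378 against 0 to 0.0842 CPM.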

How the results depend on the processing

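The counts of the pair depended most on the minimum and the threshold. Genes higher and lower numbered 372 and 25 with library size alone, 873 and 229 at a minimum of 1 CPM, 444 and 69 at 5 CPM, 29 and 15 at 50 CPM, 125 and 20 with the whole interval past 2-fold, 30 and 5 at 4-fold, and 686 and 229 at 1.5-fold. Library size alone shifted the median ratio of all genes by 0.151. The other scalings gave 214 to 275 higher and 37 to 48 lower genes, and of 623 ratios of named genes recomputed under another scaling or prior count 114 moved outside their counting interval, 72 of them under library size alone. The 2634 metastatic calls ranged from 1154 to 3239 when 1 line was left out (DESeq2, 3406). The interaction gave 0 calls by edgeR in each alternative and 52 by DESeq2. When 1 line was left out, 8 to 21 of the genes lower in the pair fell and 38 to 59 of the higher genes rose in the metastatic lines. No paired analysis was possible because the primary lines carry no replicate number and the line numbers of the metastatic groups are not shared. Of 340 counts of list members past 2-fold, 8 moved by more than 1.5 times, or from or to 0, under another scaling or prior count. Depth limits genes near the minimum, as for Bst2, whose ratio of 1.09 has an interval of 0.67 to 1.52, and the spread between primary cultures was not measured.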
